A study of Mus musculus with 7 samples.

Results

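The cells described here were the midbrain-hindbrain boundary (isthmus) and rostral hindbrain cells of the control library of embryonic day 8.5 (E8.5). They were chosen by their own transcripts. A cell was included if it had at least 1000 detected genes and at most 10% of its unique molecular identifiers (UMIs, counted molecules) from mitochondrial genes, if at least 2 of the 5 genes Fgf8, Fgf17, Gbx2, Pax5 and Pax8 were seen, and if Otx2, Sox10 and Twist1 were at 0 UMIs. This gave 502 cells, which were 8.55% (95% interval 7.84 to 9.29) of the 5874 cells that passed the quality limits in this library. The 7 libraries of the series hold 65862 cell barcodes.

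The study followed the Wnt1-Cre lineage by single-cell RNA sequencing from this stage to E10.5 in control embryos and, at the later stages, in embryos with altered Tbx1. The E8.5 embryos carried Wnt1-Cre/+ and ROSA-EGFP f/+ on a mixed Swiss-Webster background. Cells of the anterior part of pooled embryos were sorted as EGFP-positive and DAPI-negative, and were loaded on the Chromium 3' v2 chemistry. All these cells share the Wnt1-Cre driver and the EGFP reporter, so only descendants of cells in which the driver had been on could be seen, and isthmic cells without that history were not measured. There was 1 library of this stage, so no difference below has a replicate check, no test was made, and all values describe this library. Intervals cover counting error only: exact Poisson intervals for levels, exact binomial intervals for shares and exact conditional intervals for ratios of levels.

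The isthmus is a signalling centre of the embryonic brain that lies where the Otx2-expressing midbrain meets the Gbx2-expressing hindbrain. Its cells secrete FGF8 and related FGF proteins, which pattern the midbrain on one side and the cerebellum and rostral hindbrain on the other. Receiving cells answer FGF by switching on inhibitors of the same pathway, such as the Sprouty proteins, and the rostral hindbrain next to the isthmus is the part of the hindbrain that lacks Hox gene expression. WNT1 is made on the midbrain side of the boundary, though not only there.

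The labels call the sorted population neural crest cells. The selection required Sox10 and Twist1 at 0 and so left out crest cells with these transcripts, which bears on the other crest genes too. In the 502 cells the 10 neural crest specifiers other than Sox10 summed to 20.8 CPM (counts per 1000000 UMIs), against 32.9 CPM in the Otx2 cells and 282 CPM in the Hox cells that are defined below, both also without Sox10 and Twist1. Foxd3, an early crest specifier, had 2 UMIs in all 502 cells. The endothelial genes Pecam1, Kdr and Cdh5 had 0 UMIs, and the 4 haemoglobin genes looked at had between 1 and 6 each. Sox2, a gene of neural progenitors, was seen in 386 of the 502 cells (76.9%), and in 39.2% (34.9 to 43.7) after each cell was thinned to 5000 UMIs. En1, a homeobox gene of the midbrain and rostral hindbrain (chr1:120602418-120607992, plus strand, mm10) that the selection did not use, was seen in 89.0% of them, with up to 24 UMIs in a cell. After the same thinning the share with En1 was 61.2% (56.7 to 65.4). It was 2.88% in the 314 crest mesenchyme cells of the same library (2 or more Twist1 UMIs, no Sox10; called Twist1 cells below), where stray En1 molecules would also be counted, and Sox2 was seen there in 21.3% of cells before and 6.39% after thinning. The median depth was 18230 UMIs in the isthmic and rostral hindbrain cells and 24652 in the Twist1 cells. The label isthmus and rostral hindbrain was thus met by the marker that had not been used, with the limit that En1 also marks the midbrain.

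The 5 genes of the selection are given as a description. Fgf8, the main ligand of the isthmus (chr19:45736798-45742915, minus strand, mm10), was seen in 352 cells (70.1%), with a median of 3 UMIs where it was seen and a highest count of 37. After thinning to 5000 UMIs it was seen in 45.8% of the cells and in 1.28% of Twist1 cells. Fgf17, a ligand of the same subfamily, was seen in 295 cells (58.8%). The paired-box genes Pax5 and Pax8, which act in the midbrain-hindbrain territory, were seen in 331 (65.9%) and 294 (58.6%), and Gbx2, the homeobox gene of the hindbrain side, in 252 (50.2%). The cells held 26 combinations of these genes. The most common was Fgf8 with Fgf17, Pax5 and Pax8 and without a Gbx2 UMI, in 50 cells (9.96%), and all 5 genes were seen together in 29.

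The limits of the selection cut through a continuous range. Of 956 cells without Otx2, Sox10 and Twist1 UMIs, 271 had none of the 5 genes, 183 had 1, 175 had 2, 163 had 3, 135 had 4 and 29 had all 5. En1 stood at 119 CPM in the cells with 1 of the genes and at 208 CPM in those with exactly 2. On the other limit, 62 cells would have been included had 1 Otx2 UMI been allowed, and their En1 level was 359 CPM. Another 219 cells had at least 2 of the 5 genes together with 2 or more Otx2 UMIs. The same selection gave 11 cells in the control library of E9.5 and 12 and 6 in those of E10.5. It gave 5 in the E9.5 library and 12 and 22 in the E10.5 libraries whose titles call them Tbx1 null. The genotype labels of these libraries give Tbx1+/-, while the paper lists their embryos as Tbx1-/-. None of the cells selected at E9.5 and E10.5 had more than 3 of the 5 genes, and the dissections at those stages left out the head.

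Few barcodes were shared between libraries. Between 0 and 2 barcodes of the E8.5 library recurred in any other library, with at most 1 of the 502 among them. Doublets were not removed: of the 287 barcodes with the highest doublet scores, 2 were isthmic or rostral hindbrain cells (0.398%, against 4.89% of all cells that passed). The selection itself leaves out doublets in which Otx2, Sox10 or Twist1 is seen, so these shares are not a like comparison. The depth of the 502 cells ran from 6071 to 37121 UMIs with a median of 18230, where the median of all cells that passed was 23099.5. In all, 9484096 of the library's 140264662 UMIs stood behind their summed levels.

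The selected cells were also close to each other in genes that had not been used to choose them. When the 8 genes of the selection were left out, a median of 70% of the 20 nearest neighbours of a selected cell were selected cells (quartiles 55% and 80%), where their share of the library is 8.55%. For the cells with 1 of the 5 genes the median was 40%, for those with 2 or more genes and 1 Otx2 UMI it was 25%, and for those with 2 or more genes and at least 2 Otx2 UMIs it was 5%. Among cells with 2 or more of the 5 genes the share thus fell with Otx2, and the cells with a single Otx2 molecule lay between. The share did not follow Otx2 alone. For the 271 cells without Otx2 and with none of the 5 genes the median was 0% (mean 11.6%). In a clustering without the 8 genes, 429 of the 502 (85.5%) fell into 1 of 21 clusters, and they made up 60.6% of that cluster. Genes that vary with the 8 genes still entered the distances, so these values describe the population and are no test of it.

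**Figure D1:**
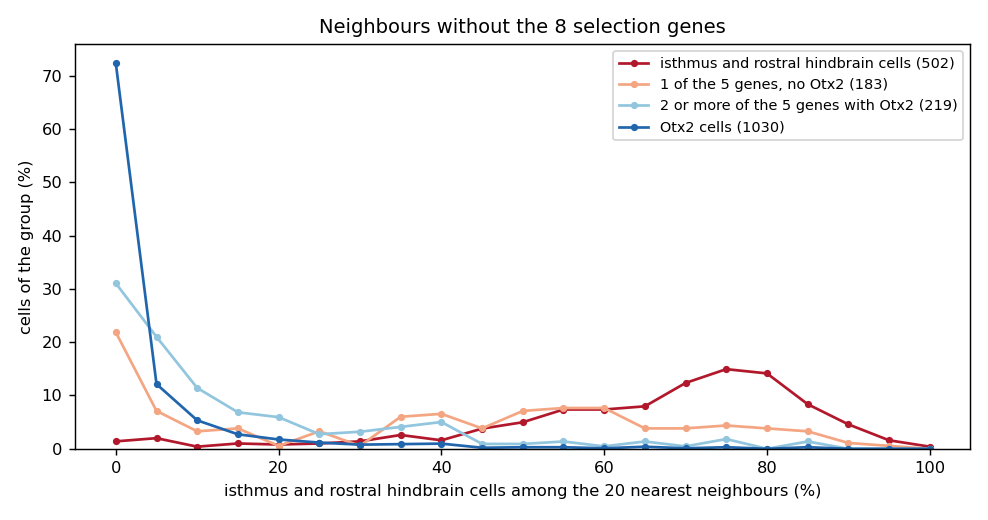
Distribution of the share of isthmus and rostral hindbrain cells among a cell's 20 nearest neighbours (x axis, percent); the y axis gives the percent of each group's cells, 1 line per group, with the number of cells in the key. The selected cells peak at the right (median 70%), cells with 1 of the 5 genes spread over the range (median 40%), and Otx2 cells pile up at 0.

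For comparison, 2 groups were taken from the same library to either side of the boundary. The first was 1030 Otx2-positive cells (Otx2 cells), with at least 2 Otx2 UMIs and no UMI of Sox10 or Twist1. They also had none of a set of forebrain genes that includes Six3, Rax, Hesx1 and Fezf1. The Hox genes of paralogue groups 1 to 3 were absent too. Pax6, a gene of the forebrain and eye field, was still seen in 15.1% of them, so not all need be midbrain cells. The second was 129 cells of Hox-expressing hindbrain character (Hox cells): at least 2 UMIs of those Hox genes, no Otx2, Sox10 or Twist1, and fewer than 2 of the 5 selection genes. Levels are a group's summed UMIs of a gene, scaled to CPM by the group's total UMIs, and genes with a level of at least 20 CPM in either group were compared. The groups were drawn by gene levels, so genes that vary with those used are part of the choice, and the ratios are a description. Median depths were 20150 UMIs in Otx2 cells and 19185 in Hox cells.

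Compared with Otx2 cells, the isthmic and rostral hindbrain cells had higher levels of FGF feedback transcripts, of Msx3 and of Cldn10, and lower levels of 3 of the 4 abundant neuron genes, of Mab21l2 and of Pax6. Of 4678 genes, 20 (0.428%) were at least 2-fold higher and 50 (1.07%) at least 2-fold lower. Of the 7 FGF feedback and target genes that were abundant enough, 6 were at least 2-fold higher. Their median log2 ratio was 1.42, where that of all genes was -0.03.

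Among these feedback genes, Spry2, which encodes a Sprouty inhibitor of receptor tyrosine kinase signalling, was at 65.7 CPM in the isthmic and rostral hindbrain cells and 14.8 CPM in Otx2 cells (4.44-fold, 3.87 to 5.10). It was seen in 47.4% of the cells, with up to 14 UMIs. Dusp6, a phosphatase that switches off ERK, was at 53.8 and 17.8 CPM (3.02-fold, 2.64 to 3.46). Transcripts of both inhibitors were thus several-fold higher than in Otx2 cells. Spred1, a further inhibitor of the Sprouty family, was at 54.3 and 19.5 CPM (2.78-fold), and Il17rd, a membrane inhibitor also known as Sef, at 53.1 and 19.9 CPM (2.67-fold). The transcription factor Etv5, a standard FGF target, was at 21.4 and 9.31 CPM (2.30-fold), and Spry1 at 44.7 and 20.5 CPM (2.18-fold). The exception was Flrt3, a membrane protein that binds FGF receptors, at 86.9 and 82.9 CPM (1.05-fold, 0.964 to 1.14). Cnpy1, a chaperone that promotes FGF receptor maturation, was below the abundance limit, at 17.8 and 5.62 CPM. The 14 genes of the list summed to 442 CPM against 218 CPM. A high Dusp6 level was not confined to neural cells in this library: it was at 61.5 CPM in Twist1 cells.

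**Figure D2:**
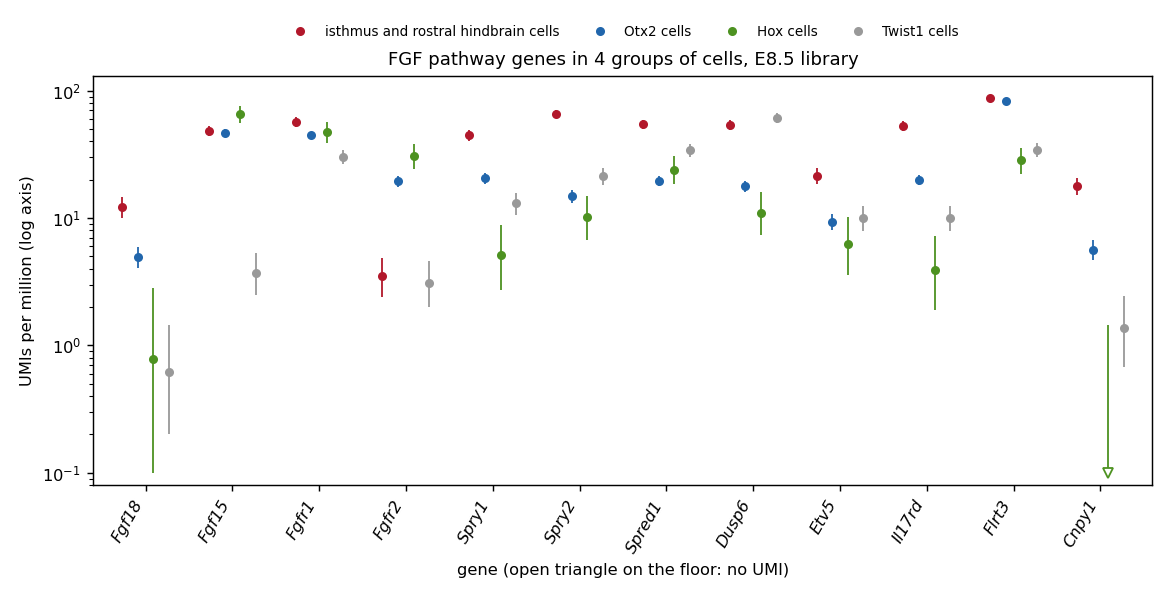
Levels in CPM (log axis) of FGF ligands, receptors and feedback genes in the isthmus and rostral hindbrain cells, Otx2 cells, Hox cells and Twist1 cells, with exact Poisson intervals; an open triangle marks no UMI. Spry2, Dusp6, Spred1, Il17rd, Etv5 and Spry1 lay above their levels in Otx2 and Hox cells, while Flrt3 matched its level in Otx2 cells.

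The ligands and receptors gave a more uneven picture. Fgf18, the third member of the Fgf8 subfamily and not used in the selection, was at 12.1 CPM against 4.93 CPM in Otx2 cells (2.46-fold, 1.87 to 3.23), and was seen in 15.7% of the cells. Fgf15, another ligand of the early neural tube, was nearly level at 48.6 and 46.9 CPM. Fgfr1, the receptor most used in this territory, was at 56.7 and 44.5 CPM. The other receptors were low: Fgfr2 was at 3.48 CPM against 19.5 (5.60-fold lower, 3.93 to 8.25) and 30.7 CPM in Hox cells, and Fgfr3 had 3 UMIs in the 502 cells, 0.316 CPM, against 4.47 CPM in Otx2 cells and 7.08 CPM in Hox cells. Transcripts of Fgfr2 and Fgfr3 were thus lower in the isthmic and rostral hindbrain cells than in both comparison groups, and those of Fgfr1 were not.

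The 300-base windows around the RefSeq starts (250 bases before to 50 after, GRCm38.p6) of 3 of the feedback genes are printed. These 3 had the highest ratios to Hox cells among the 6 that were at least 2-fold higher than in both comparison groups. ETS factors such as ETV5 carry FGF signals to promoters. The letters searched were CCGGAA and its reverse complement TTCCGG, an ETS core, on both strands, and a match is in capitals.
Spry2, chr14:105896770-105897069, minus strand: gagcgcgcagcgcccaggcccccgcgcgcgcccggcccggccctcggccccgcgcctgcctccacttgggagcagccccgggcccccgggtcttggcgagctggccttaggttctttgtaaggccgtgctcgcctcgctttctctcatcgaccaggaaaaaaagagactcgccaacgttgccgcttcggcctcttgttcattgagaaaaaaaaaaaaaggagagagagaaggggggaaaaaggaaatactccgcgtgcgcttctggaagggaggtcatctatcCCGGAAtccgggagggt
Spry1, chr3:37639697-37639996, plus strand: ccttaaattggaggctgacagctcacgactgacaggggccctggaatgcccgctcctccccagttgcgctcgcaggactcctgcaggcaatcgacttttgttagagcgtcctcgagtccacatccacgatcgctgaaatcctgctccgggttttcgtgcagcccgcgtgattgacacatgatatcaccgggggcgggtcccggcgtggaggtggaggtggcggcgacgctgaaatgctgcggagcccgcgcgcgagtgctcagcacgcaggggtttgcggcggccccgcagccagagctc
Il17rd, chr14:27038751-27039050, plus strand: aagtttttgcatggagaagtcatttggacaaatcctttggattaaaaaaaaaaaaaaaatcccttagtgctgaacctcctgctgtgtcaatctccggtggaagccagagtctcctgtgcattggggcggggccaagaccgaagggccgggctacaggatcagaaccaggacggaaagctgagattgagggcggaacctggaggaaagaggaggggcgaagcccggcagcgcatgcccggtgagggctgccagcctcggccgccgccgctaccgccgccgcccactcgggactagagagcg
One match stands in the Spry2 window, inside the transcribed part, and none in the other windows. Of the 6 feedback genes that were at least 2-fold higher, which have 7 windows, 1 held the letters. Among all 32851 RefSeq windows of this length 4894 (14.9%) held them. A match is no evidence of binding, and its lack says only that these letters are not in the window.

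Beyond FGF signalling, the gene with the highest ratio to Otx2 cells was Msx3, a homeobox gene of the dorsal hindbrain and spinal cord, at 33.2 CPM against 1.38 (24.0-fold, 16.5 to 36.2). It was seen in 18.1% of the isthmic and rostral hindbrain cells. Dorsal genes as a list did not follow it: of 5 abundant ones, 1 was at least 2-fold higher and 1 lower. Of these 5, 3 lay below the level in Otx2 cells, and the median log2 ratio was -0.27. Both abundant ventral neural tube genes lay above it, within 2-fold (median 0.79). Cldn10, a tight junction claudin, was at 125 CPM against 13.3 (9.44-fold) and was seen in 71.9% of the cells. Sp9, a zinc finger factor related to Sp8, was at 25.1 against 4.56 CPM (5.50-fold), and Fabp7, a lipid-binding protein of radial progenitors, at 106 against 21.5 CPM (4.93-fold). The channel gene Aqp11 (3.39-fold) and the interferon-inducible Ifitm3 (3.34-fold) completed the 8 highest with Spry2 and Dusp6. Msx3 was thus found in a minority of the cells, whereas Cldn10 and Fabp7 were seen in most of them.

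The genes with the lowest ratios to Otx2 cells had different roles. Neurog1, a proneural factor, had 1 UMI in all 502 cells against 27.0 CPM in Otx2 cells (256-fold lower, interval from 45.7). Gadd45g, which is expressed in cells leaving the cycle, was at 1.58 against 31.3 CPM (19.8-fold lower). All 4 abundant neuron genes had lower levels, 3 of them at least 2-fold, among them the neuronal tubulin Tubb3 at 27.6 against 110 CPM. The Notch effector Hes5 was at 42.2 against 192 CPM, while the related Hes3, a repressor that holds isthmic progenitors undifferentiated, was at 245 against 145 CPM (1.69-fold). The proliferation genes differed little, with a median log2 ratio of 0.03 over 10 genes. Fewer neuronal transcripts therefore went with proliferation transcripts at like levels.

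Among the others, Mab21l2, which acts in midbrain and eye development, was at 0.633 against 65.8 CPM (104-fold lower, 47.7 to 284). Pax6, the paired-box gene of the forebrain and eye field, was at 0.949 against 27.5 CPM (29.0-fold lower), and the WNT inhibitor Apcdd1 at 3.69 against 66.1 CPM (17.9-fold lower). Enpp2, which encodes autotaxin, an enzyme that makes lysophosphatidic acid, was at 2.43 against 21.8 CPM (9.01-fold lower, 5.93 to 14.4). Otx1, the paralogue of Otx2, was at 4.43 against 39.2 CPM (8.85-fold lower, 6.49 to 12.4). Ehbp1, which encodes an adaptor of endocytic traffic, was at 4.53 against 109 CPM (24.0-fold lower, 17.7 to 33.2) and was seen in 6.18% of the cells against 81.4% of Otx2 cells. Ehbp1 (chr11:22005828-22342292, minus strand) lies next to Otx1 (chr11:21994764-22002897, minus strand) in the annotation.

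Boundary factors that the selection did not use were unevenly spread on the 2 sides. En2, the paralogue of En1, was at 19.5 against 8.44 CPM (2.31-fold) and Pax2, the earliest paired-box gene of the boundary, at 19.8 against 9.13 CPM (2.17-fold). Both lay close to the abundance limit, below it in each group. En1 was at 238 against 185 CPM (1.29-fold) and Sp8 at 65.8 against 40.7 CPM (1.62-fold), so these factors spanned the boundary. Wnt1, a ligand made on the midbrain side among other places, was at 15.9 against 76.4 CPM (4.80-fold lower, 4.06 to 5.71). The WNT target Sp5 was at 18.1 against 79.4 CPM (4.38-fold lower). Efna2, an ephrin of the midbrain, was at 28.6 against 111 CPM (3.89-fold lower). The secreted WNT antagonist Sfrp2 was at 133 against 65.4 CPM (2.03-fold) and the cadherin Cdh6 at 31.7 against 11.3 CPM (2.80-fold). The 219 cells with 2 or more of the 5 genes and at least 2 Otx2 UMIs, which overlap the Otx2 cells but were not held to 0 forebrain and Hox UMIs, carried 107 CPM of Wnt1 and 324 CPM of En1, both higher than in the isthmic and rostral hindbrain cells. Their Spry2 level, 32.2 CPM, lay between the 2 groups.

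**Figure D3:**
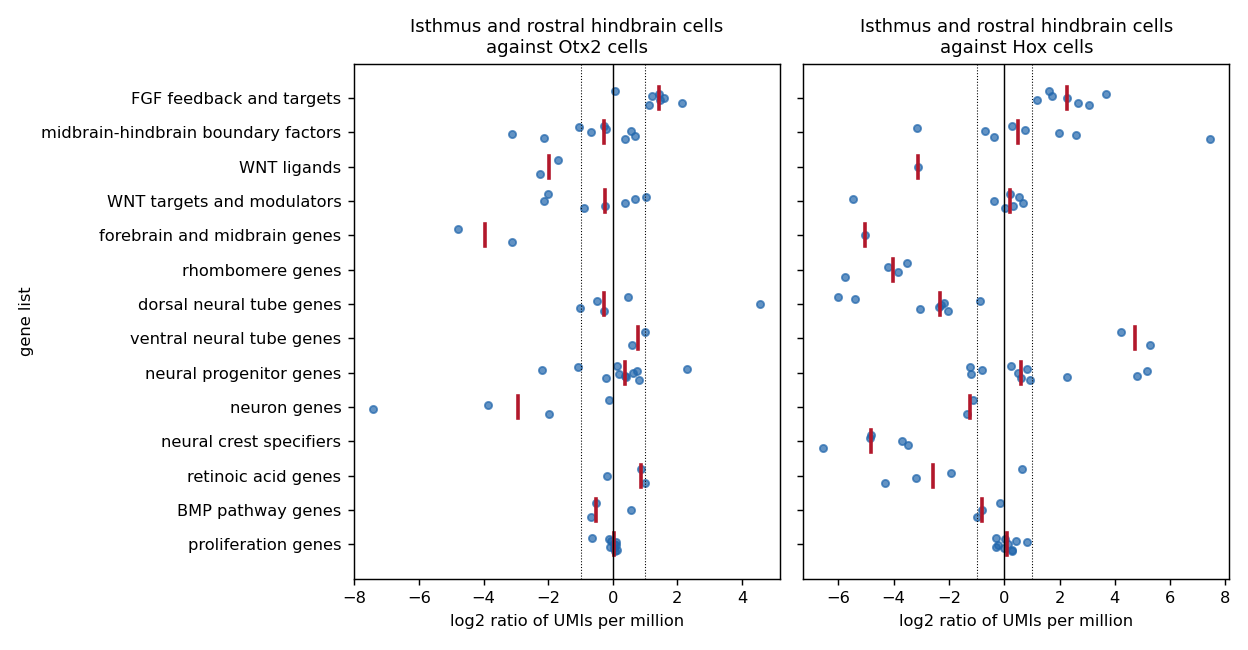
Log2 ratio of levels in the isthmus and rostral hindbrain cells to Otx2 cells and to Hox cells for the genes of each list that passed the abundance limit; each point is a gene, the red bar is the list's median and dotted lines mark 2-fold. FGF feedback genes lay above 0 in both comparisons (medians 1.42 and 2.26), and rhombomere and neural crest specifier genes far below 0 against Hox cells.

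Against Hox cells the difference was broader, with 98 of 4777 genes (2.05%) at least 2-fold higher and 93 (1.95%) at least 2-fold lower. The FGF feedback genes were again higher, 7 of 7, with a median log2 ratio of 2.26 against -0.01 for all genes, and their list summed to 442 against 111 CPM. Il17rd had the highest ratio of them, 53.1 against 3.93 CPM (13.5-fold), followed by Spry1 (8.74-fold), Spry2 (6.42-fold) and Dusp6 (4.88-fold). Flrt3, level with Otx2 cells, was 3.07-fold higher than in Hox cells. Of the 7 genes, 6 were thus at least 2-fold higher than in Otx2 cells and 7 than in Hox cells, and their order differed between the comparisons.

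En1 led the comparison with Hox cells, at 238 against 1.18 CPM (202-fold, 69.0 to 980), where the Hox cells had 3 UMIs. En2 had no UMI in Hox cells and was at least 16.5-fold higher. Hes3 was at 245 against 6.69 CPM (36.7-fold), Sox21, a repressor in neural progenitors, at 71.3 against 2.36 CPM (30.2-fold), and the long noncoding RNA Rmst at 36.2 against 0.787 CPM (46.0-fold, on 2 UMIs in Hox cells). Cldn10 was 45.5-fold and Sp9 16.0-fold higher. The ventral homeobox genes Nkx6-2 (37.5 against 0.787 CPM) and Nkx2-9 (47.1 against 2.36 CPM) were also among the 8 highest. Their summed counts came from few cells: Nkx6-2 was seen in 19.1% of the isthmic and rostral hindbrain cells and Nkx2-9 in 8.57%, with up to 37 UMIs of Nkx2-9 in a cell.

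The lowest ratios to Hox cells were in hindbrain, dorsal and crest genes. Hoxd4, which was not used to draw the groups, had 1 UMI against 28.3 CPM (269-fold lower), and 13 of the 502 cells had any UMI of the Hox genes of groups 1 to 3. All 4 abundant rhombomere genes were at least 2-fold lower, among them Egr2, the gene of the odd-numbered middle rhombomeres, at 0.633 against 36.6 CPM (57.8-fold). The retinoic acid binding proteins Crabp1 and Crabp2, abundant in the hindbrain, were at 555 against 5144 CPM and 439 against 1680 CPM. At least 2-fold lower were also 7 of the 8 abundant dorsal neural tube genes and all 5 abundant crest specifiers, with Olig3, a dorsal progenitor factor, 72.7-fold and Foxd3 118-fold lower. Rspo3 (49.4-fold), Lmx1a (47.6-fold), Zfp703 (46.4-fold) and the noncoding Hoxb3os (51.1-fold) were the others of the 8 lowest. Wnt1 was at 15.9 against 138 CPM (8.65-fold lower), so the 2 groups differed in dorsal transcripts too, and position along the neural tube and dorsal character cannot be told apart in this comparison.

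The remaining lists can be read against the same backgrounds. Of 9 boundary factors compared with Otx2 cells, 0 were at least 2-fold higher and 3 lower, and of 8 compared with Hox cells 3 were higher and 1 lower. Of 7 WNT targets and modulators, 1 was higher and 2 lower than in Otx2 cells, and 0 higher and 1 lower than in Hox cells. Both abundant WNT ligands were lower than in Otx2 cells, and both abundant forebrain and midbrain genes too. Of 11 neural progenitor genes, 1 was higher and 2 lower than in Otx2 cells, and 3 higher and 2 lower than in Hox cells. Of 4 ephrins, 0 were higher and 1 lower than in Otx2 cells, and 2 higher and 0 lower than in Hox cells. The 3 abundant BMP pathway genes stayed within 2-fold in both comparisons. Retinoic acid genes stayed within 2-fold of Otx2 cells (3 genes), and 3 of 4 were lower than in Hox cells. The crest mesenchyme list without Twist1 summed to 22.2 CPM, against 20.7 CPM in Otx2 cells and 51.9 CPM in Hox cells, and Prrx2 made up 15.3 CPM of it. Surface ectoderm and placode genes summed to 17.8 CPM, against 50.6 and 53.9 CPM.

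Levels of the feedback genes were then set against the cells' own Fgf8 transcripts. The 502 cells held 204 with 3 or more Fgf8 UMIs, 148 with 1 or 2 and 150 with none, at median depths of 18594.5, 18198 and 17722 UMIs. Feedback genes summed to 447, 448 and 429 CPM in the 3 classes, a ratio of 1.04 (0.968 to 1.12) between the first and the last. Spry2 was at 61.0, 80.1 and 58.2 CPM and Dusp6 at 46.0, 57.0 and 61.9 CPM. The members did not move together: Spred1 was at 63.0, 52.5 and 43.4 CPM (1.45-fold, 1.16 to 1.82) and Flrt3 at 96.5, 83.8 and 76.0 CPM (1.27-fold, 1.07 to 1.51), whereas Dusp6 was lowest in the cells richest in Fgf8 (0.744 of the level without Fgf8, 0.601 to 0.922). In the 502 cells the sum thus hardly differed with the cell's own Fgf8 count, and none of the 7 abundant members differed 2-fold.

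Few other genes differed between these classes. Of 4730 genes, 5 (0.106%) were at least 2-fold higher in cells with 3 or more Fgf8 UMIs than in cells with none, and 4 (0.0846%) at least 2-fold lower. Wnt1 had the lowest ratio, at 2.50 CPM in cells with 3 or more Fgf8 UMIs, 12.1 CPM in those with 1 or 2 and 39.1 CPM in those with none (15.6-fold, 8.17 to 33.5). The ratio was 7.86 when cells were thinned to 5000 UMIs before Fgf8 was counted, and 10.3 in cells with at least 3 of the 5 genes. It was seen in 2.94%, 8.78% and 19.3% of the cells, and 10 UMIs stood behind the first value. In Twist1 cells Wnt1 was at 8.06 CPM. High Fgf8 and Wnt1 transcripts were thus mostly in different cells. The other 3 genes that were at least 2-fold lower were the stress-response gene Gadd45a (10.8 against 37.6 CPM), Irf2bpl (16.8 against 38.0 CPM) and the corepressor Tle4 (20.5 against 41.6 CPM).

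On the higher side were Dqx1 (3.18-fold), Xaf1 (2.36-fold), Gnaz (2.24-fold), Nkx6-1 (2.18-fold) and Map7 (2.07-fold). Dqx1 and Xaf1 rested on few cells, being seen in 10.3% and 5.39% of the cells with 3 or more Fgf8 UMIs. Of the 6 abundant WNT targets and modulators, 0 were at least 2-fold higher or lower, 5 lay above the level without Fgf8 and 1 below, and their median log2 ratio was 0.51, where that of all genes was -0.00. Nkd1, an intracellular WNT inhibitor, was at 105, 82.7 and 52.8 CPM over the 3 classes (1.99-fold, 1.64 to 2.42), and the WNT target Axin2 at 28.3, 21.3 and 23.2 CPM (1.22-fold, 0.891 to 1.69). Lef1, which encodes a transcription factor of the WNT pathway, was at 33.8, 23.5 and 20.3 CPM (1.67-fold, 1.21 to 2.32), and the WNT target Sp5 at 26.3, 9.19 and 15.2 CPM (1.73-fold, 1.20 to 2.53). The secreted antagonist Sfrp2 ran the other way, at 114, 136 and 158 CPM (0.72 of the level without Fgf8, 0.63 to 0.823). Notum, which encodes a secreted enzyme that inactivates WNT proteins and was below the abundance limit, was at 15.3, 7.35 and 2.89 CPM (5.27-fold, 2.51 to 12.8). The secreted inhibitor Dkk1 was at 6.75, 4.04 and 6.51 CPM. Sfrp1 was at 182, 169 and 161 CPM (1.13-fold, 1.00 to 1.28), and the WNT inhibitor Apcdd1 at 3.25, 2.94 and 5.06 CPM (0.642, 0.278 to 1.47). The cells richest in Fgf8 thus had the lowest Wnt1 level of the 3 classes. The WNT inhibitors named were higher (Nkd1, Notum, and Sfrp1 slightly) or lower (Sfrp2) in them, or had a ratio whose interval spans 1 (Dkk1, Apcdd1). Lef1 and the WNT target Sp5 were higher in the cells richest in Fgf8 too, while the interval for the target Axin2 spans 1.

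**Figure D4:**
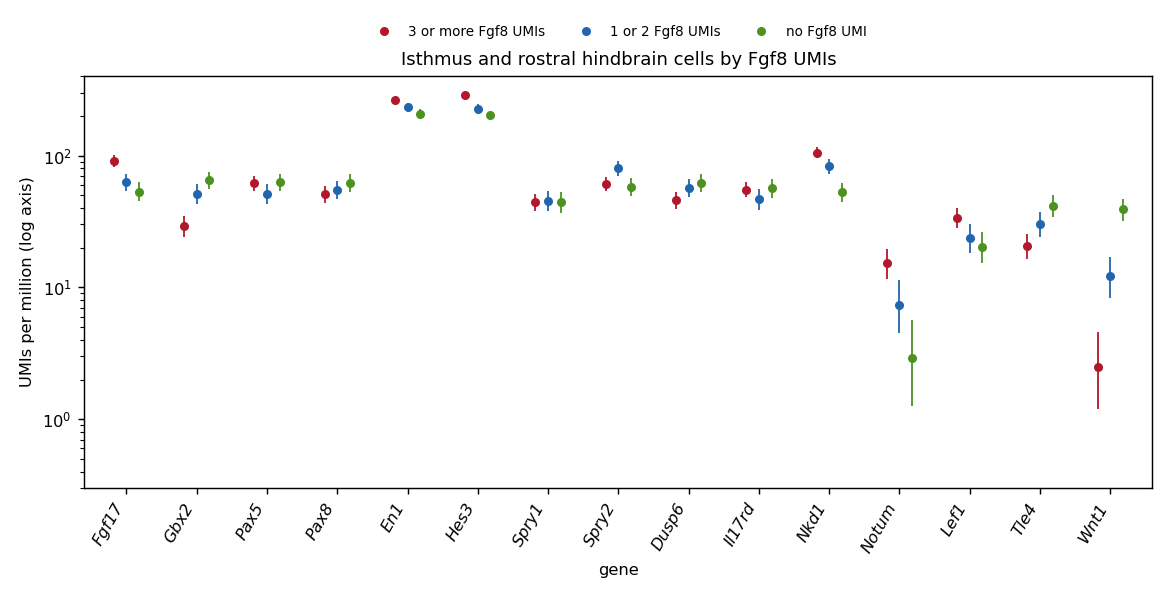
Levels in CPM with exact Poisson intervals in cells with 3 or more, 1 or 2, and no Fgf8 UMIs, for selection genes, boundary genes, feedback genes and WNT genes; the y axis is logarithmic. The feedback genes Spry1 and Il17rd were near level, Wnt1 was highest in cells without Fgf8 (39.1 CPM) and Notum lowest (2.89 CPM).

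The selection itself bears on these classes, since a cell without Fgf8 had to show 2 of the other 4 genes. Gbx2, for example, was at 29.3, 51.4 and 64.8 CPM. The classes were therefore also drawn, after these values had been seen, among all 591 cells with En1 and without Otx2, Sox10 and Twist1, whatever the 5 genes. There Gbx2 was at 27.8, 50.7 and 39.3 CPM. Wnt1 was at 2.48, 13.3 and 37.4 CPM, and Notum at 15.4, 7.81 and 3.32 CPM. The feedback genes summed to 448 (428 to 470), 466 (440 to 494) and 409 (390 to 429) CPM. Their ratio between the first and the last class was 1.10, a larger difference than in the 502 cells. Of these cells 447 are among the 502, and 197 of the 207 with 3 or more Fgf8 UMIs, so the values for Fgf8-rich cells are largely the same counts. The class without Fgf8 held 245 cells, 125 of them outside the 502. The order of the Gbx2 levels thus depended on the set of cells. The wider set both dropped the need for 2 of the 5 genes and required En1, and these changes cannot be told apart.

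Per cell, the rank correlations of Fgf8 with genes outside the selection were weak. Over the 502 cells thinned to 5000 UMIs, the highest rank correlations with Fgf8 among 4368 genes were for Car4, a carbonic anhydrase (rho 0.22), Hes3 (0.18), Fastkd2 (0.17) and Nkd1 (0.16), followed by Tmem243, Crabp1, Npm3 (0.15 each), Fam49b (0.14), Knl1 and En1 (0.13 each). The median over all genes was -0.00. Spry2 stood at 0.10, Dusp6 at 0.01 and Il17rd at -0.02. The cells share 1 library and the counts are sparse, so these values rank genes and are no finding. Among the 942 thinned cells without Otx2, Sox10 and Twist1, whichever of the 5 genes they had, Fgf17 was seen in 32.4% of cells with Fgf8 and in 10.4% of cells without. Gbx2 was seen in 13.0% and 11.5%.

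The cells also held a dorsal and a ventral population, and the FGF ligands differed between them. The classes were drawn, after earlier values had been seen, by 4 dorsal genes (Pax3, Msx1, Msx3, Zic1) and 4 ventral genes (Nkx6-1, Nkx6-2, Nkx2-9, Foxa2). Only dorsal genes were seen in 179 cells (35.7%), only ventral genes in 127 (25.3%), both in 22 and neither in 174, at median depths of 17812, 19414, 20397.5 and 17594 UMIs. Of 4738 genes, 45 (0.95%) were at least 2-fold higher in dorsal than in ventral cells and 39 (0.823%) at least 2-fold lower. These shares are the background for the lists below.

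Fgf8, Fgf17, Gbx2, Pax5 and Pax8 chose the cells, so their levels below depend on the selection and are a description. Fgf8 was found in both classes, at 217 CPM in dorsal and 188 CPM in ventral cells (1.15-fold, 1.02 to 1.30). Its relatives were uneven: Fgf17 was at 104 CPM in dorsal and 25.4 CPM in ventral cells (4.10-fold, 3.13 to 5.43), and was seen in 73.7% and 30.7% of them. Fgf18 went the other way, at 3.53 and 25.8 CPM (7.31-fold lower in dorsal cells, 3.91 to 14.9), seen in 5.03% and 33.1%. The ratio for Fgf17 was 7.07 with classes drawn at 2 or more UMIs. Among all cells with En1 and without Otx2, Sox10 and Twist1, whatever the 5 genes, 193 were dorsal and 186 ventral, of which 153 and 119 are among the 502. There Fgf8 was at 202 and 147 CPM, Fgf17 at 98.9 and 19.1 CPM and Fgf18 at 4.43 and 22.6 CPM. This set of cells was added after the other values had been seen. In this wider set, largely of the same cells, Fgf8 was thus 1.38-fold higher in dorsal cells, Fgf17 5.19-fold higher, and Fgf18 was lower there. Fgf15 was at 45.8 and 69.8 CPM. En1 (231 and 256 CPM), Gbx2 (44.1 and 36.9 CPM), Pax5 (53.2 and 63.1 CPM) and Pax8 (52.0 and 54.3 CPM) differed little. In the wider set Gbx2 was at 38.2 and 26.4 CPM. En2 was higher dorsally, at 28.2 and 12.3 CPM, and Hes3 was highest in the cells with neither set, at 358 CPM, against 230 and 124 CPM.

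**Figure D5:**
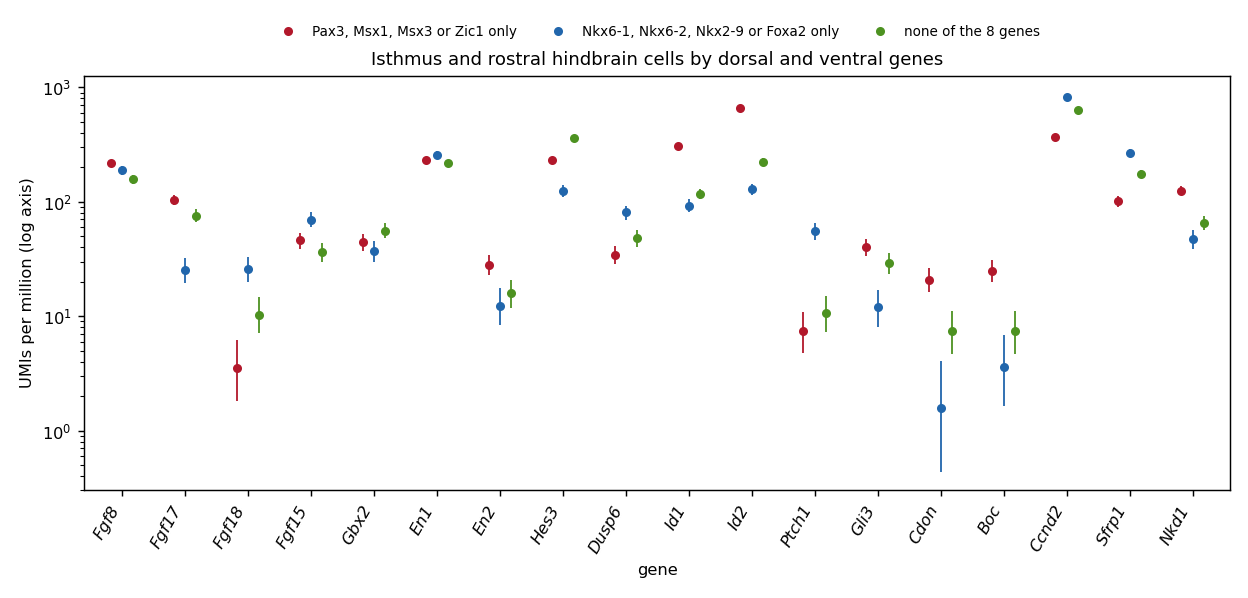
Levels in CPM (log axis) with exact Poisson intervals in cells with only dorsal genes, only ventral genes and neither. Fgf8 differed less than the other 2 ligands of its subfamily between dorsal and ventral cells (217 and 188 CPM), Fgf17 and Id2 were higher in dorsal cells, and Fgf18 and Ptch1 in ventral cells.

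The summed feedback genes stood at 403 CPM in dorsal and 448 CPM in ventral cells, with members that differed in either direction. Dusp6 was at 34.4 and 80.5 CPM (2.34-fold lower in dorsal cells, 1.86 to 2.97) and Cnpy1 at 27.0 and 10.7 CPM (2.52-fold higher, 1.63 to 4.03). Flrt3 was at 59.1 and 108 CPM (1.83-fold lower, 1.52 to 2.21), and Il17rd at 56.1 and 40.9 CPM (1.37-fold higher, 1.08 to 1.76). Spry1 was at 44.7 and 42.4 CPM and Spry2 at 62.9 and 52.4 CPM. Of the 8 abundant genes of this list, 1 was thus at least 2-fold higher and 1 at least 2-fold lower.

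BMP patterns the dorsal and Hedgehog the ventral neural tube, and genes that drew the classes respond to these signals, so the levels of their other target genes are a description. All 3 abundant BMP pathway genes were at least 2-fold higher in dorsal cells: Id2, an inhibitor of helix-loop-helix factors and BMP target, was at 660 and 129 CPM (5.12-fold, 4.55 to 5.77), Id1 was 3.33-fold higher, and Id3 was at 1250 and 588 CPM. Fst, a secreted antagonist of activin and BMP ligands, was at 21.2 and 2.38 CPM. Ptch1, the receptor and transcriptional target of Hedgehog signalling, was at 7.35 and 55.5 CPM (7.56-fold lower in dorsal cells, 4.91 to 12.1). The target Gli1 had 2 UMIs in dorsal and 8 in ventral cells, 0.588 and 3.17 CPM, and Gli2 was at 4.70 and 7.14 CPM, a ratio of 0.658 with an interval of 0.314 to 1.37. The co-receptor genes Cdon, Boc and Gas1 and the repressor gene Gli3 ran opposite to Ptch1, with Cdon at 20.9 and 1.59 CPM, Boc at 24.98 and 3.57 CPM, Gas1 at 50.5 and 28.6 CPM and Gli3 at 40.3 and 11.9 CPM. The Hedgehog genes were added to the lists after their values had been seen.

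Other dorsal genes followed the genes that drew the class, as the homeobox and zinc finger genes Zic5 (70.2 and 1.59 CPM), Msx2 (34.1 and 0.793 CPM) and Pax7 (20.3 and 0.397 CPM) and the receptor Nrp2 (23.5 and 4.36 CPM) did. On the ventral side were Spon1, a matrix protein of the floor plate (5.88 and 49.2 CPM), Fam181b (29.4 and 203 CPM, a ratio of 0.145 that was 0.0766 after thinning to 5000 UMIs and 0.0942 with classes drawn at 2 or more UMIs), Trp53i11 (11.2 and 85.3 CPM), Arid3a (3.82 and 34.9 CPM), Hsd11b2, a glucocorticoid-inactivating enzyme (2.06 and 25.4 CPM), and Trh, the thyrotropin-releasing hormone gene (3.23 and 25.8 CPM). Sox2 was at 84.6 and 159 CPM, the cyclin gene Ccnd2 at 369 and 826 CPM, and Ccnd1 at 141 and 244 CPM. Their lists did not follow them. Of 10 abundant proliferation genes, 0 were at least 2-fold higher in dorsal cells and 1 lower, with a median log2 ratio of -0.06. Of 11 neural progenitor genes, 2 were higher and 2 lower, with a median of 0.25. Genes that were high against Otx2 cells were themselves uneven along this axis: Cldn10 was at 186 and 54.3 CPM and Fabp7 at 148 and 42.1 CPM. The Hox genes of groups 1 to 3 summed to 11.8 CPM in dorsal and 2.38 CPM in ventral cells, and crest specifiers to 30.0 and 16.7 CPM. Without the cells with a Hox UMI, the ratios of dorsal to ventral levels were 4.13 for Fgf17 (4.10 with them), 0.146 for Fgf18 (0.137) and 5.30 for Id2 (5.12). The part of crest-expressing cells in the dorsal values was not tested.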

How the data were processed

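Cells of 1 sorted E8.5 pool were profiled by droplet sequencing. The deposited matrices hold raw UMI counts per gene and barcode; the submitters' processing notes name Cell Ranger 6.0.1 and the mm10 build. No normalised values were used, and no file maps cells to embryos. Gene positions are those of GENCODE M21 (32235 of 32285 gene IDs).

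Counts were summed over cells and scaled to CPM. Genes at 20 CPM or more in either group were compared, those used to draw the groups left out. Genes with a ratio of at least 2 in either direction were counted; log2 ratios, and so these counts, carry a pseudocount of 0.5 UMIs, printed folds none. A fold against 0 UMIs was set against 3 counts over the group. Shares of cells with a gene were taken after thinning to 5000 UMIs where the text says so. All other such shares, also those set against each other, come from the full counts. Neighbours were taken in 30 principal components of 2000 variable genes (scanpy 1.11.5). The genes named are the 8 highest and 8 lowest ratios of each comparison, the 10 genes most like Fgf8, and genes of 23 lists (231 genes). Some of these genes are not reported here. The method was tested on simulated counts. The members and lists were chosen with earlier results of these data known. Doublets were scored with the Scrublet method in scanpy. Other tools were Python 3.11.15, numpy 2.4.6, scipy 1.17.1, pandas 2.3.3 and edgeR 4.0.16 (scaling factors in an alternative). Alternatives changed the selection, scaling, abundance limit, thinning, doublets and neighbour settings.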

Additional observations from a re-analysis of the deposited data

How the results depend on the processing

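The number of selected cells was 327 with at least 3 of the 5 genes, 564 with 1 Otx2 UMI allowed and 271 after thinning to 5000 UMIs, against 502. With an abundance limit of 5 CPM, 99 genes were at least 2-fold higher and 168 lower than in Otx2 cells, and 315 higher and 341 lower than in Hox cells. With 50 CPM these counts were 10, 22, 38 and 41. Against Otx2 cells with at most 1 of the 5 genes, an alternative chosen after seeing the data, the median log2 ratio of the feedback genes was 1.80. With 15 components the median share of neighbours was 65%. The margin was 1.5 times for a count of genes, and for most other values the 95% counting interval of the value as reported (for a median over genes, that of its middle gene). For the neighbours, the median was treated as a share of the 502 cells. That margin is not an interval of a median. Besides these changes, 55 other values stayed within their margin, as did 3 under settings added later. The summed feedback genes in cells with 3 or more Fgf8 UMIs over cells with none stood at 1.04, with an interval that spans 1. Under the alternatives this ratio ranged from 0.985 (at least 3 of the 5 genes) to 1.10, on either side of 1. The value of 1.10 was that of all cells with En1 and without Otx2, Sox10 and Twist1. There the sums in the first and the last class were 448 (428 to 470) and 409 (390 to 429) CPM. The interval that spans 1 is that of the 502 cells and not of this wider set. Of the values for single genes under alternatives added after seeing the data, 25 stayed within their margin and 10 moved beyond it. In dorsal over ventral cells Fgf17 ran from 3.68 to 7.07, Id2 from 4.73 to 6.45 and Fam181b from 0.0766 to 0.184. Wnt1 in cells without Fgf8 over those with 3 or more UMIs ran from 7.86 to 15.2. Fgf8 in dorsal over ventral cells ran from 1.08 to 1.38. No scaling moved the median of all genes by over 0.1 (log2). No paired analysis was possible because the results come from no test and E8.5 has 1 library.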
